A study of Mus musculus with 54 samples.

Results

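The jejunum of mouse females on day 7 of lactation was compared with that of age-matched virgin females. The members are samples, chosen by their labels: lactating jejunum samples 1, 2, 4, 5 and 6 and virgin female jejunum samples 1 to 6, which makes 11 of the 54 samples in the series. The whole series measured polyadenylated RNA by strand-specific sequencing in the duodenum, jejunum and ileum of lactating females, virgin females and virgin males, with 6 samples in each of the 9 groups, to follow how the gut of the mother grows through pregnancy and lactation. The mice ate standard diets, RM3 for breeding and RM1 for maintenance. If that split followed lactation, effects of diet and of lactation cannot be told apart here. Strain, age in weeks and litter size are not given in the labels used here, and the labels do not say that each sample came from a separate animal, so p-values measure the spread between samples. The remaining lactating jejunum sample, number 3, is left out by the rule that chose the members. It had 20.3 CPM (counts scaled to the gene reads of each sample) of Pdx1, which controls duodenal and pancreatic identity, against 0.0425 to 0.265 CPM in the 11 samples used. The 6 virgin male jejunum samples entered the statistical fit, which therefore held 17 samples. They were not part of the contrast, but shared in the estimate of the spread, the filter on low counts and the scaling.

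The jejunum is the middle stretch of the small intestine, where most sugar, amino acids and fat are taken up by enterocytes on long villi that are renewed from crypts. A lactating mouse eats far more than a virgin, and her small intestine enlarges. Relative RNA levels such as those here describe the make-up of the tissue and not its total amount, and in bulk tissue fewer cells of a type and less RNA per cell cannot be told apart.

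The 11 samples held 19550437 to 25503240 gene reads each and 17106 to 17606 genes with reads. The share of reads assigned to no gene was 21.8% to 25.7%, which takes in unmapped reads and reads that fit several places or several genes. Lct, a marker of the proximal and mid gut, was high in both groups. This lactase of the brush border stood between 2771 and 4403 CPM in the lactating samples and between 3003 and 4138 CPM in the virgin females. Lct alone does not set the position along the gut, since the left-out lactating sample 3 had 1753 CPM. Slc10a2, an ileal marker given below, was not called but was lower in every lactating sample than in any virgin female. Markers of other tissues were absent or varied between samples. Csn2, a milk casein, and Hba-a1, a globin, had no read in any of the 11 samples, and the pancreatic enzyme gene Ctrb1 reached at most 0.182 CPM. The 16 genes of the pancreas list summed to 41.3 to 64.7 CPM in lactation and 31.4 to 71.3 CPM in virgin females. The fat cell hormone gene Adipoq ran from 0 to 30.1 CPM in lactation and from 0 to 25.7 CPM in virgin females, and 12 adipose genes summed to 36.2 to 471 CPM in lactation and 24.0 to 375 CPM in virgin females. The amount of muscle coat varied between samples. The summed level of 18 smooth muscle genes ran from 5838 to 10074 CPM in the lactating samples and from 2831 to 11979 CPM in the virgin females. None of these genes was called, where 1.31% of all genes were.

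Few of the genes tested were called in the jejunum, and in the fit of the jejunum samples most called changes were falls of modest size. Of 14783 genes tested, edgeR's quasi-likelihood test called 194 at an adjusted p under 0.05, which is 1.31%. At an unadjusted p under 0.05 there were 2214, and the count of calls does not measure how much changed. The 51 genes that rose are 0.345% of those tested and the 143 that fell are 0.967%. In the fit of all female samples 73 genes were called, 36 higher and 37 lower. The median log2 fold change, lactating over virgin female, was 0.67 among the genes that rose, -0.46 among those that fell and -0.01 over all genes. Changes of over 2-fold were found for 12 genes that rose and 17 that fell. The values of the lactating and virgin female samples did not overlap for 348 genes, 2.35% of those tested, and for 143 of the 194 called (31 higher and 112 lower).

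**Figure D1:**
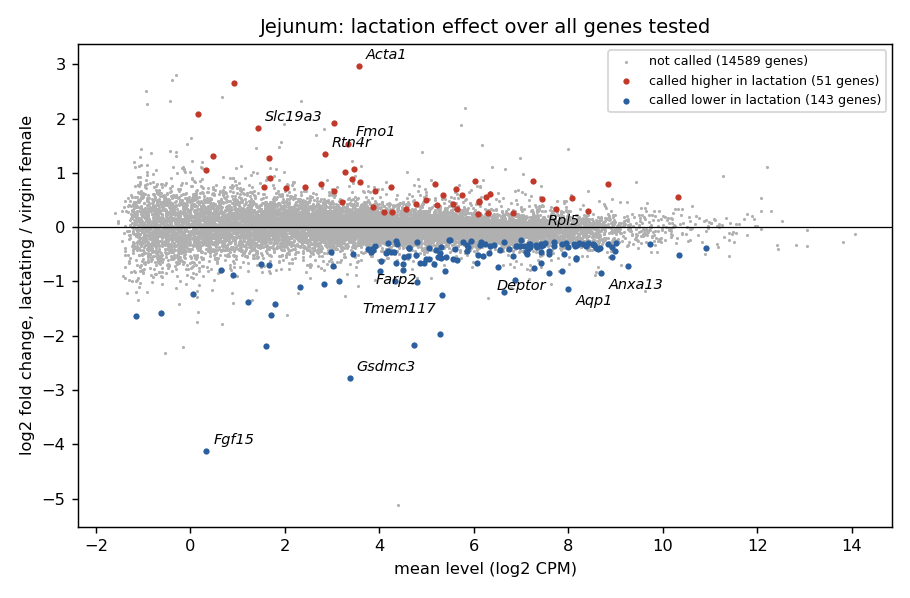
Log2 fold change, lactating over virgin female jejunum, against mean level (log2 CPM) for the 14783 genes tested, 1 point a gene. The 143 genes called lower outnumber the 51 called higher and form a band of small falls at middle and high levels, with Fgf15 and Gsdmc3 far below it and Acta1 far above.

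The number of calls rested on the samples used. When 1 sample at a time was left out, edgeR called between 8 and 150 genes. The lowest count came without lactating sample 6, and 186 of the 194 calls were lost there. It was 47, 101, 68 and 150 without lactating samples 1, 2, 4 and 5, and 49, 74, 120, 136, 72 and 50 without virgin female samples 1 to 6. A fit of the compared groups alone, with no males, called 18 (7 higher and 11 lower). Scaling by library totals called 192, of which 73 were higher and 119 lower, and without a filter on low counts 71 genes were called, 25 of them higher. Added after the data were seen, a fit with smooth muscle level as a covariate called 287 genes (119 higher and 168 lower), 182 of them among the 194.

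Among the 194, 8 genes were called whichever of the 11 samples was left out, and they are described first. Of these, 5 (Fmo1, Rtn4r, Anxa13, Aqp1 and Tmem117) were also called in all 9 other settings. Deptor, Farp2 and Rpl5 lost their call in the fit of all female samples. Deptor and Rpl5 also lost it with the left-out samples kept as labelled, and Rpl5 in the compared groups alone. Of 44 named genes that were called, 5 are among the 8, and the other 39 lost their call without lactating sample 6 at least. Anxa13, Farp2 and Deptor were singled out after their values were seen. The largest rises and falls among the named genes were chosen for lack of overlap of the groups, so that lack is no added support for them. Fmo1 (chr1:162829561-162866610), a flavin monooxygenase that oxidises foreign compounds, stood at 18.01, 15.7, 22.4, 12.3 and 13.9 CPM in lactating samples 1, 2, 4, 5 and 6. In the virgin females it ran from 3.97 to 7.02 CPM with a median of 5.69. Every lactating sample lay above every virgin female, and the fold change was 1.54 ± 0.19 (log2 ± SE, edgeR adjusted p = 0.00229). Virgin males had 6.88 to 13.5 CPM. Rtn4r (chr16:18127642-18152408), the receptor for the axon growth inhibitor Nogo, was at 14.0, 10.3, 14.2, 8.42 and 12.8 CPM in the lactating samples against 3.47 to 6.02 CPM in the virgin females (median 4.59). It rose by 1.344 ± 0.17 (edgeR adjusted p = 0.00229), again without overlap.

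The other 6 of these 8 genes fell. Anxa13 (chr15:58341471-58389244), an annexin of the intestinal brush border and its membrane traffic, was at 214, 293, 321, 298 and 268 CPM in the lactating samples and at 420 to 610 CPM in the virgin females, a change of -0.84 ± 0.11 (edgeR adjusted p = 0.00229). Aqp1 (chr6:55336432-55348555), the water channel of gut endothelium and some epithelia, was at 133, 123, 218, 154 and 148 CPM in lactation. Virgin females had 269 to 386 CPM (median 348), and the change was -1.13 ± 0.16 (edgeR adjusted p = 0.00301). The groups did not overlap in either gene, and lactating sample 4 was the highest of its group in both. The endothelial list had no called member of 19, where 1.31% of all genes were called, and its median was 0.30. Of the 5 aquaporins tested, Aqp1 was the called one, where 0.967% of all genes fell.

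Tmem117 (chr15:94629232-95096098) was at 17.6, 17.9, 23.2, 19.4 and 27.5 CPM in lactation against 38.3 to 61.6 CPM in virgin females (-1.25 ± 0.20, edgeR adjusted p = 0.0128). Farp2 (chr1:93512079-93621976), an exchange factor for small GTPases of the actin skeleton, was at 26.4, 20.95, 23.1, 24.8 and 24.5 CPM against 32.0 to 39.2 CPM (-0.58 ± 0.08, edgeR adjusted p = 0.0033). Deptor (chr15:55112317-55259271), which binds and restrains the growth kinase mTOR, was at 74.6, 80.4, 79.1, 72.6 and 66.2 CPM, and the virgin females ran from 95.2 to 105 CPM (-0.42 ± 0.06, edgeR adjusted p = 0.00287). All 3 were lower in every lactating sample than in any virgin female. The 8th gene, Rpl5, is described with the other ribosomal protein genes.

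**Figure D2:**
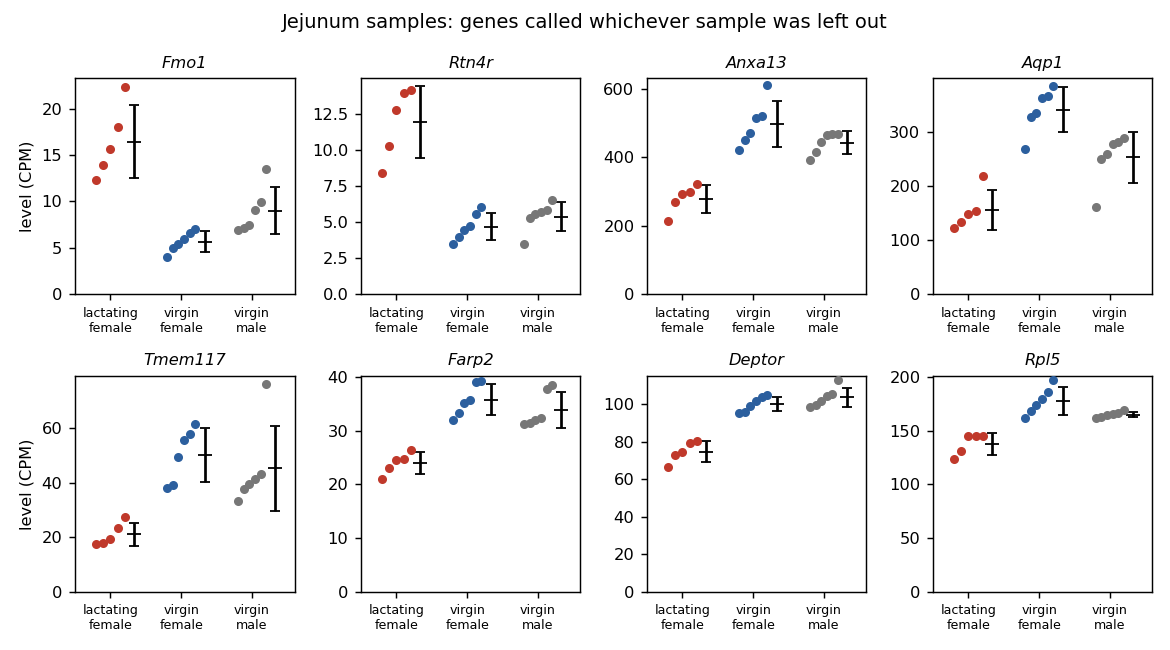
Level (CPM) of the 8 genes that stayed called whichever of the 11 samples was left out, 1 point a jejunum sample in 5 lactating females, 6 virgin females and 6 virgin males, with the mean and SD as a bar beside each group. Fmo1 and Rtn4r are higher, and Anxa13, Aqp1, Tmem117, Farp2, Deptor and Rpl5 lower, in every lactating sample than in any virgin female.

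Among the gene lists, that of ribosomal proteins held the most called members. Ribosomal proteins of the cytosol form the large (Rpl) and small (Rps) subunits. Of 60 tested genes on the ribosomal protein list, 21 fell and none rose, against 0.967% of all genes called lower, and the list's median log2 fold change was -0.26, against -0.01 over all genes. Over all 76 tested cytosolic ribosomal protein symbols, a set drawn up after the values were seen, 24 fell, 74 had a negative change, and the range was -0.39 to 0.18. Many of these genes have processed pseudogenes of near-identical sequence, so their single counts are uncertain.

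Promoter sequences are shown for 4 called ribosomal protein genes and 2 called initiation factors that hold a pyrimidine run. They are from RefSeq's table on GRCm38.p6, on the gene's strand, from 30 bases before the annotated start to 30 bases from it on, so the start is base 31. Capitals mark the longest run of 8 or more bases that are C or T. The run spans RefSeq's annotated start in Rps18 and Eif3f, begins after it in Rps12 and Rpl13a, and ends before it in Rpl5 and Eif3m. The 2 annotations differ for Rpl5: its GENCODE gene starts at chr5:107900502, and the run lies after that start.
Rpl5 (chr5:107900498-107900557, plus strand): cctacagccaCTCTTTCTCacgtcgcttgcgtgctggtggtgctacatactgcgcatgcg
Rps12 (chr10:23787180-23787239, minus strand): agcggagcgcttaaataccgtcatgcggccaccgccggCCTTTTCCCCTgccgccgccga
Rps18 (chr17:33955636-33955695, minus strand): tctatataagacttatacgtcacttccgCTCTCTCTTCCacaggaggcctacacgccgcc
Rpl13a (chr7:45128716-45128775, minus strand): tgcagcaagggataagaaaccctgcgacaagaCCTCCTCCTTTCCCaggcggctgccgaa
Eif3f (chr7:108934385-108934444, plus strand): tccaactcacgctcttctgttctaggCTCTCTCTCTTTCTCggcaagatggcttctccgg
Eif3m (chr2:105016998-105017057, minus strand): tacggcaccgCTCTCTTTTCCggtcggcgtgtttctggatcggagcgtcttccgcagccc
A run of this kind anywhere in the window, searched on the gene's strand alone, was present in 31 of 57 ribosomal protein genes with a promoter entry (54.4%) and in 25.8% of all 27025 genes in the table. Among the ribosomal protein genes it was held by 8 of the 17 called lower with an entry (47.1%) and by 23 of the 40 not called (57.5%). It was present in 28.0% of the other genes called lower that had an entry. These shares are descriptions and were not tested.

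Rpl5 (chr5:107900502-107909005), a large-subunit protein that carries 5S ribosomal RNA, was at 123, 144, 145, 131 and 145 CPM in the lactating samples and at 162 to 197 CPM in the virgin females (median 177). The lactating samples all lay below, and the change was -0.37 ± 0.06 (edgeR adjusted p = 0.0129). Rps12, with the largest fall of the ribosomal protein genes, was at 364, 361, 343, 300.3 and 345 CPM against 412 to 518 CPM, also without overlap (-0.39 ± 0.08, edgeR adjusted p = 0.0325). Rpl10a changed by -0.37 ± 0.08 and Rps20 by -0.36 ± 0.07. In sum the 76 genes made up 16278, 17321, 17682, 15352 and 18040 CPM in lactating samples 1, 2, 4, 5 and 6, and 19291 to 22455 CPM (median 19949) in the virgin females. These sums do not overlap under the scaling used for the tests, nor do those of the 60 tested members of the list, at 13551 to 15920 CPM in lactation and 17080 to 19853 CPM in virgin females. Scaled to library totals, the sums of the 61 listed genes overlapped, at 13729 to 16896 CPM in lactation and 16098 to 19659 CPM in virgin females, with 2 of 5 lactating samples above the lowest virgin female.

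**Figure D3:**
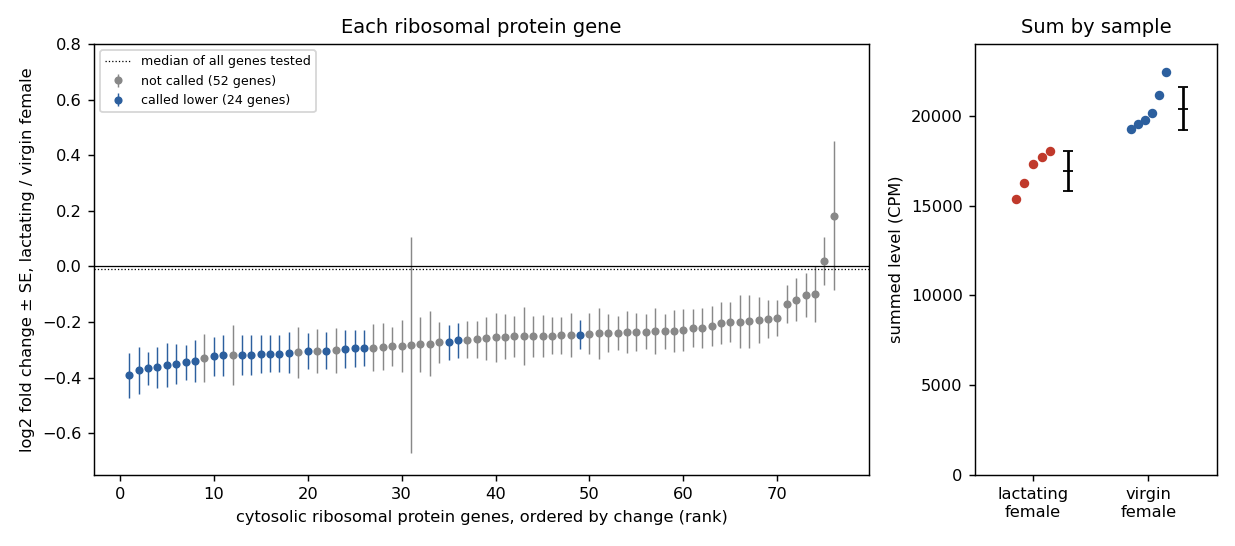
Left, log2 fold change ± SE, lactating over virgin female, of the 76 cytosolic ribosomal protein genes tested, ordered by change, with the median of all genes tested as a dotted line. Right, their summed level (CPM) in each of the 5 lactating and 6 virgin female samples with mean and SD. Of the 76, 74 lie below 0, 24 are called lower, and the summed levels of the groups do not overlap.

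Some other genes of the translation machinery were called lower too. They were counted in sets drawn up after the values were seen. Of 65 genes with symbols of initiation (Eif) and elongation (Eef) factors, 6 were called lower and none higher, where 0.967% of all genes were called lower. The median was -0.02, and 36 had a negative and 28 a positive change. Eif2s3y, among the 65, had a mean of 0 CPM in both female groups. The 65 include kinases, methyltransferases and binding proteins of these factors, such as Eif2ak1, Eef2k, Eef1akmt1 and Eif4ebp1. Eif4b, a helicase cofactor, was at 304, 315, 364, 329 and 313 CPM in lactation and at 388 to 459 CPM in virgin females (-0.39 ± 0.07, edgeR adjusted p = 0.0175). Eef2, which moves the ribosome along the mRNA, changed by -0.38 ± 0.08, Eif3f by -0.34 ± 0.06, Eef1b2 by -0.32 ± 0.07, Eif3e by -0.28 ± 0.06 and Eif3m by -0.24 ± 0.06. Among the noncoding hosts of small nucleolar RNAs, which guide modification of ribosomal RNA, Epb41l4aos (-0.71 ± 0.12) and Zfas1 (-0.67 ± 0.13) fell of 19 tested, against the same 0.967%, and 15 had a negative change. Nop53, a ribosome assembly factor, fell by 0.35 on the log2 scale.

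The assembly factor Nsa2 also fell (-0.28 ± 0.05), and like Nop53 it is in none of the lists that follow. None of 78 mitochondrial ribosomal protein genes was called (median 0.03), none of 49 nuclear genes of oxidative phosphorylation (median 0.06) and none of 26 ribosome biogenesis genes (median 0.12). Of all genes tested, 1.31% were called. In the fit of all female samples, the ribosomal protein list had a median of -0.16 in the ileum and -0.20 in the duodenum. It had no call in either, where 0.505% and 0.48% of all genes were called. The count of called members was the less firm part of this result. It was 1 to 13 when 1 jejunum sample was left out, 20 under median-of-ratios scaling, 12 under library totals, 2 without a count filter, and 41 under DESeq2. It was 0 in the fit without males, 0 with the left-out samples kept as labelled and 0 in the fit of all female samples. With smooth muscle level as a covariate it was again 21. In each of those settings the list's median stayed negative, between -0.28 and -0.19.

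Slc19a3, the thiamine transporter of the gut, was at 5.88, 7.80, 3.28, 3.76 and 3.4996 CPM in the lactating samples and at 0.747 to 2.43 CPM (median 1.24) in the virgin females. The groups did not overlap, and it rose by 1.83 ± 0.35 (edgeR adjusted p = 0.0228). Slc19a1, the reduced folate carrier, was at 19.0, 14.3, 13.9, 12.2 and 13.0 CPM against 5.64 to 9.85 CPM (0.88 ± 0.21, edgeR adjusted p = 0.0497), close to the threshold and lost whichever sample was left out. They were the 2 called of 22 tested genes for vitamins, where 0.345% of all genes rose, and the list's median was 0.02.

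Slc39a4, which takes up zinc at the apical membrane, was at 756, 436, 794, 512 and 799 CPM in lactation against 281 to 443 CPM in virgin females. Lactating sample 2 lay within the range of the virgin females and the other 4 above it, and the change was 0.80 ± 0.16 (edgeR adjusted p = 0.0247). It was the called one of 22 genes for iron and trace metals, where 0.345% of all genes rose. Slc30a10, a manganese exporter and a target of vitamin D, stood at 85.6, 69.1, 62.4, 52.3 and 93.0 CPM against 43.8 to 53.8 CPM (0.59 ± 0.13, edgeR adjusted p = 0.0406), with lactating sample 5 inside the virgin range. It was the called one of 13 tested genes for calcium and phosphate, against the same 0.345%. S100g, the vitamin D-dependent calcium carrier, was at 2.97 ± 1.27 CPM in lactation and 2.43 ± 0.972 CPM in virgin females (SD, n = 5 and n = 6).

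Slc6a20a, the brush border proline transporter, was at 39.7, 52.6, 66.3, 81.4 and 33.8 CPM in lactation against 82.7 to 154 CPM in virgin females (-1.19 ± 0.22, edgeR adjusted p = 0.0211). It was the called one of 20 amino acid and peptide transporters, where 0.967% of all genes fell. All lactating samples lay below the virgin females. Glud1, glutamate dehydrogenase, and Aldh4a1, the last enzyme of proline breakdown, are in no list and were singled out after their values were seen. Glud1 was at 368, 369, 540, 456 and 425 CPM in lactation and 573 to 870 CPM in virgin females, with no overlap (-0.71 ± 0.14, edgeR adjusted p = 0.0241). Aldh4a1 rose by 0.85 ± 0.17 (edgeR adjusted p = 0.0321), from 87.5 to 148 CPM in virgin females to 141 to 273 CPM in lactation, with lactating sample 5 inside the virgin range.

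Fgf15, a gut hormone that signals to the liver to make less bile acid, had the largest fall among called genes. The 5 lactating samples had 0 to 5 reads each and 16 in all, and the 6 virgin females had 6 to 103 reads each and 345 in all. On the CPM scale lactation gave at most 0.224 and the virgin females 0.31 to 4.93 (median 2.01). The groups did not overlap, and the fitted change was -4.13 ± 0.80 (edgeR adjusted p = 0.0241). Markers of the ileum are given beside it. Fabp6, the ileal bile acid binding protein, ran from 0.136 to 1.85 CPM in lactation and 0.205 to 12.6 CPM in virgin females, and Slc10a2, the bile acid importer, from 0.59 to 2.03 CPM against 2.08 to 13.0 CPM. Of 9 tested ileal markers, Fgf15 was the called one, where 0.967% of all genes fell. The list had a median of -0.36 and a summed level of 3604 to 4660 CPM against 4096 to 4551 CPM. The part of the position of the sampled segment in the fall of Fgf15 was not tested. Baat, which joins bile acids to taurine or glycine, was the other called gene of 12 in the bile acid list, against the same 0.967% (-0.69 ± 0.16, edgeR adjusted p = 0.045).

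The gasdermin C cluster on chromosome 15 fell together, and its size rested on 1 sample. These genes encode pore-forming proteins that mouse intestine induces in type 2 immune responses. Gsdmc2 was at 10.6, 12.1, 6.15, 9.19 and 11.1 CPM in lactation and at 23.4 to 145 CPM (median 23.8) in virgin females. Gsdmc3 was at 1.35 to 3.26 CPM against 6.44 to 64.1 CPM, and Gsdmc4 at 10.05 to 20.99 CPM against 28.3 to 174 CPM. Virgin female sample 5 was far above the other 5 in all 3 genes, but no lactating sample reached any virgin female. The changes were -2.16 ± 0.52, -2.78 ± 0.64 and -1.97 ± 0.47 (edgeR adjusted p = 0.0464, 0.0417 and 0.0481). Without virgin female sample 5 they were -1.28, -1.75 and -1.26. Gsdmc2 and Gsdmc3 were each called in 1 of the 11 fits with 1 sample left out and Gsdmc4 in none. All 3 lost their call with the smooth muscle covariate. The 3 paralogs lie side by side and share near-identical sequence, so reads that fit more than 1 of them are not counted and the genes are undercounted. Il1rl1, the receptor for the type 2 cytokine IL-33, rose and was named after its values were seen. It ran from 8.25 to 30.4 CPM in lactation against 1.486 to 10.55 CPM, with overlap (1.92 ± 0.41, edgeR adjusted p = 0.0349). The list of the gasdermin genes held 9 tested genes and had no other call, where 0.967% of all genes fell. The tuft cell list, the cells that start type 2 responses, had no call among 16 (median -0.42), where 1.31% of all genes were called. Its summed levels were 95.2 to 193 CPM in lactation and 110 to 252 CPM in virgin females.

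Acta1, the skeletal muscle actin, rose most among called genes. It was at 47.2, 13.9, 9.35, 15.8 and 64.5 CPM in the lactating samples and at 1.09 to 6.75 CPM (median 4.05) in virgin females, a change of 2.97 ± 0.58 (edgeR adjusted p = 0.0241). The groups did not overlap, and samples 1 and 6 stood highest. The other 4 tested genes of the striated muscle list were not called, where 1.31% of all genes were, and the list's median was -0.20. Other skeletal muscle genes overlapped between the groups: Mylpf ran from 2.30 to 3.09 CPM in lactation and 2.71 to 3.65 CPM in virgin females, Ckm from 7.89 to 16.9 CPM against 4.98 to 24.7 CPM, and Myh4 had no read in 4 of 5 lactating and in any virgin female sample.

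Of the genes that rose more than 2-fold, 6 more did not meet the naming rule, because of a low mean level, a symbol given by number or overlap of the groups, and are named after their values were seen. They are Dmp1 (2.66 ± 0.55), Gm5535 (2.08 ± 0.48), Apln (1.31 ± 0.30), Thpo (1.26 ± 0.28), Gm2061 (1.07 ± 0.25) and Arhgdig (1.04 ± 0.23). Plau, the urokinase that activates plasminogen, was at 11.1, 18.3, 17.5, 11.5 and 17.4 CPM in lactation against 4.5 to 10.6 CPM (1.01 ± 0.22, edgeR adjusted p = 0.0349). Npl, an enzyme of sialic acid breakdown, rose by 0.84 ± 0.17, Tmem171 by 0.82 ± 0.17, Mfsd4a by 0.79 ± 0.18, Ift22, a part of intraflagellar transport, by 0.73 ± 0.15, and Ajuba, a LIM-domain adaptor, by 0.73 ± 0.17. Groups did not overlap in these 6 genes, as the naming rule asked. Cd14, the endotoxin co-receptor of macrophages, was at 5.73 to 8.09 CPM against 3.41 to 4.58 CPM (0.74 ± 0.17, edgeR adjusted p = 0.0417). It was the called one of 24 macrophage genes, where 0.345% of all genes rose. With 1 sample left out, Cd14 was called in none of the fits. Prom1, a membrane protein of crypt cells, rose by 0.70 ± 0.12 (edgeR adjusted p = 0.0175) and was called in 10 of the 11 fits with 1 sample left out. It was the called one of 22 stem cell and Wnt genes, against the same 0.345%, and Lgr5 and Olfm4, which define crypt stem cells, were not called. Gda, guanine deaminase of purine breakdown, was at 1391 to 1768 CPM against 873 to 1208 CPM (0.55 ± 0.11, edgeR adjusted p = 0.0308). Gys1, glycogen synthase of muscle and other tissues, rose by 0.38 ± 0.08 with overlap of the groups.

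Ppara, the nuclear receptor for fatty acids, was at 42.2, 44.3, 50.9, 59.2 and 37.1 CPM in lactation against 59.9 to 102 CPM in virgin females (-0.66 ± 0.16, edgeR adjusted p = 0.045). It was the called one of 26 genes for fat oxidation, whose median was -0.16, where 0.967% of all genes fell. Nr3c1, the glucocorticoid receptor, was at 176, 132, 144, 137 and 136 CPM against 170 to 199 CPM (-0.34 ± 0.07, edgeR adjusted p = 0.0349), with lactating sample 1 inside the virgin range. Thrb, a thyroid hormone receptor (-0.55 ± 0.10), Cebpa, a transcription factor of metabolic tissues (-0.53 ± 0.10), and Txnip, which restrains glucose uptake (-0.55 ± 0.10), fell without overlap and were named after their values were seen. Mylip, which marks the LDL receptor for degradation, was at 7.16 to 14.8 CPM in lactation against 17.6 to 27.6 CPM (-0.81 ± 0.17, edgeR adjusted p = 0.0345).

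Guca2a, guanylin, the hormone that stimulates chloride secretion into the lumen, was at 122, 134, 199, 187 and 163 CPM in lactation against 235 to 356 CPM in virgin females (-0.82 ± 0.13, edgeR adjusted p = 0.0129). It was called in 10 of the 11 fits with 1 sample left out. Guca2a was the called one of 19 goblet cell genes and of 23 electrolyte genes, where 0.967% of all genes fell. Ndrg1 (-0.97 ± 0.21), Tns4, a focal adhesion protein (-1.02 ± 0.19), Cyp2u1, a cytochrome P450 (-0.995 ± 0.21), and Ugt2a3, a glucuronosyltransferase (-0.73 ± 0.17), fell, the last with overlap of the groups. Tgfbi, a matrix protein of the villus tip, fell by 0.43 with overlap. At low levels, Alppl2, an alkaline phosphatase (0.569 to 1.81 CPM against 2.17 to 6.77 CPM), Srd5a2, a steroid reductase (0.616 to 1.68 CPM against 1.78 to 4.09 CPM), Cldn8, a claudin (0.0948 to 0.44 CPM against 0.62 to 1.05 CPM), and ccdc198 (0.426 to 1.75 CPM against 2.93 to 9.28 CPM) fell without overlap. Zbed6 (-0.99 ± 0.24), not called in any fit with 1 sample left out, lies within Zc3h11a on the same strand, which also fell (-0.30 ± 0.07), so reads of the pair cannot be told apart with confidence.

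Genes of digestion and absorption were mostly not called, and of all genes tested 1.31% were. None of 15 sugar digestion and transport genes was called, and their median was -0.01. Slc5a1, the sodium-glucose cotransporter, was at 4016 ± 474 CPM in lactation and 3478 ± 627 CPM in virgin females (SD, n = 5 and n = 6; 0.21 ± 0.18 on the log2 scale, edgeR adjusted p = 0.642). Lct changed by -0.14 ± 0.14, Sis, the sucrase-isomaltase, by 0.23 ± 0.18, and Slc15a1, the peptide transporter, by -0.26 ± 0.12, and none passed the test. There was likewise no call among 13 brush border peptidases (median -0.08), 26 fat absorption genes (median -0.07), 11 apolipoproteins (median 0.18) or 23 genes of cholesterol synthesis (median -0.01). Of the 58 lists with at least 5 tested members, 33 had no called member and 25 had at least 1. With 1.31% of all genes called, the lack of a call in a short list is not a result about its members.

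Cell cycle genes and the stem cell markers Lgr5 and Olfm4 were not called, whereas Prom1, above, was. Of 43 cell cycle genes none passed the test, where 1.31% of all genes did, and their median was 0.20. Mki67, a nuclear protein of dividing cells, was at 87.8 ± 17.7 CPM in lactation and 83.5 ± 21.6 CPM in virgin females (SD, n = 5 and n = 6; 0.07 ± 0.16, edgeR adjusted p = 0.893). Lgr5 was at 6.09 ± 2.16 and 4.61 ± 1.45 CPM (0.41 ± 0.24, edgeR adjusted p = 0.449), and Olfm4 at 293 ± 127 and 214 ± 51.8 CPM (0.45 ± 0.21, edgeR adjusted p = 0.332). Prlr, the receptor for prolactin, was at 192 ± 30.2 and 203 ± 17.6 CPM (-0.08 ± 0.10, edgeR adjusted p = 0.772). The groups overlapped in each of these 4 genes.

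Several lists of other cell types had medians away from 0 without a call, where 1.31% of all genes were called. B and plasma cell genes had a median of 0.42 (16 tested), fibroblast genes 0.37 (27 tested), smooth muscle genes 0.24 (18 tested) and adipose genes -0.35 (12 tested). Summed B and plasma cell genes ran from 4927 to 7585 CPM in lactation and from 3392 to 7015 CPM in virgin females. Clock genes had a median of -0.34 over 19, and their sum lay at 590.2 to 746.6 CPM in every lactating sample, under the 747.2 to 862.5 CPM of the virgin females. Tef, a clock output factor, stood at 17.5 to 37.0 CPM against 33.8 to 73.9 CPM and did not pass the test (edgeR adjusted p = 0.0974). The labels used here give no hour of sampling. Transcription factors of the epithelium had no call among 24 (median -0.15), yet their sum of 4701 to 4926 CPM lay under the 5120 to 5583 CPM of the virgin females. These sums are scaled to library totals and were picked out after the values were seen. Of the other gene lists summed in this way, the water channels, which include Aqp1, also did not overlap. They summed to 216.8 to 347.8 CPM in lactation and 369.5 to 501.3 CPM in virgin females. The sums of all remaining lists overlapped. The clock sums were separated narrowly, by 746.6 CPM in lactating sample 2 against 747.2 CPM in virgin female sample 2. No list sum was tested, and the part of tissue make-up in the results above was not tested.

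**Figure D4:**
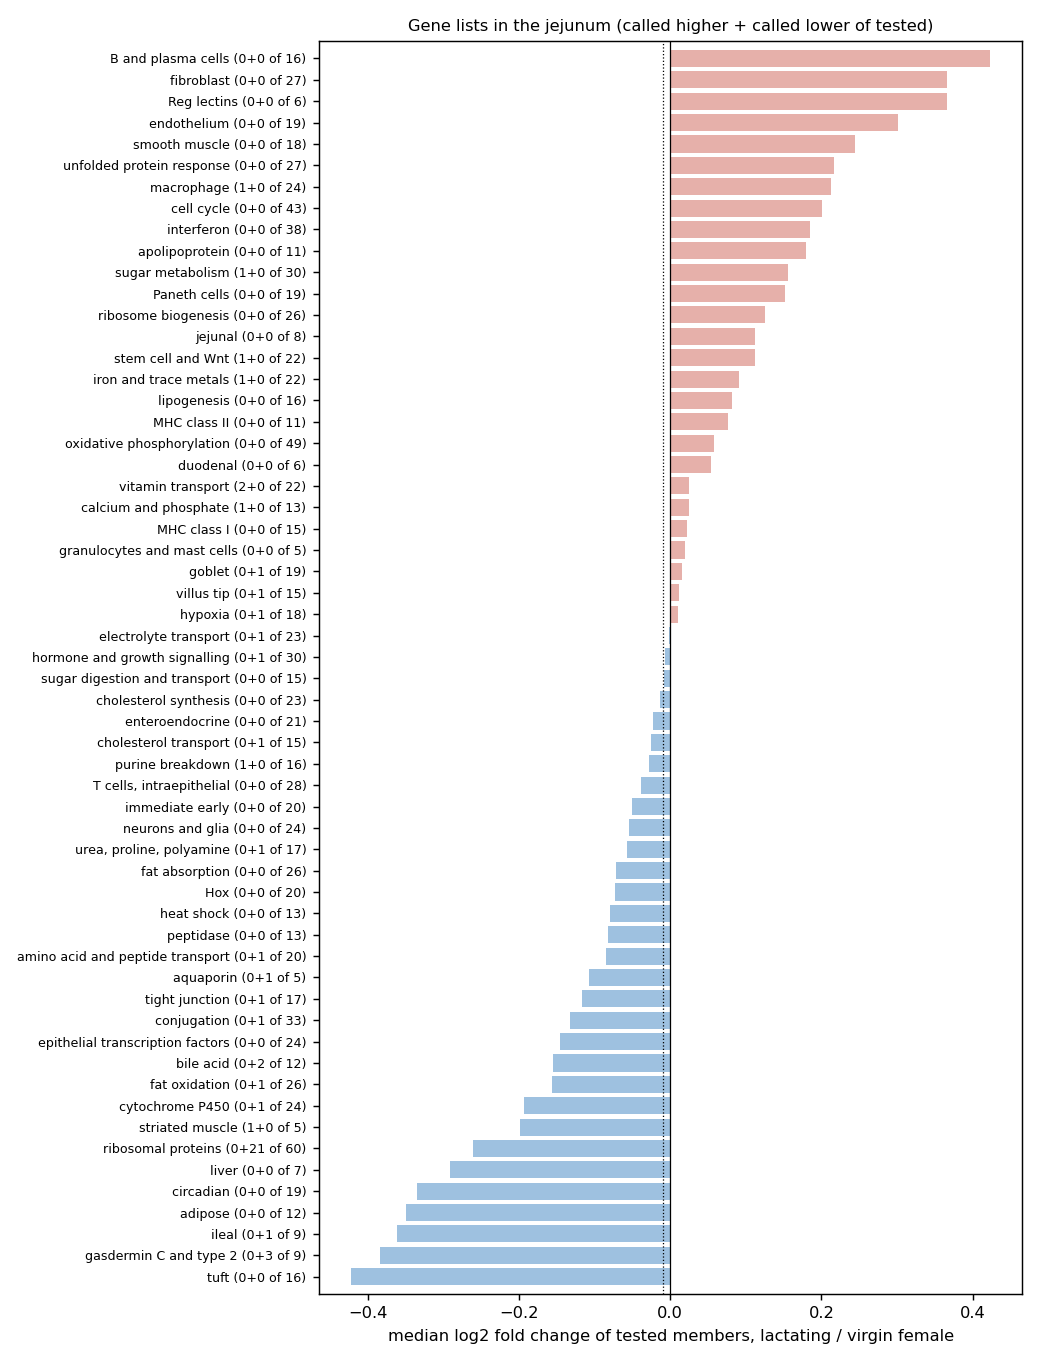
Median log2 fold change, lactating over virgin female jejunum, of each of the 58 gene lists with at least 5 tested members, with called higher and called lower of tested members after each name and the median of all genes tested as a dotted line. The ribosomal protein list has 21 of its 60 tested members called lower, and most lists with larger medians have no called member.

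The lactation effect in the jejunum was set against that in the other sections with a test of the difference itself, in a fit of 34 female samples. The labels do not say whether sections with the same number came from 1 mouse. The tests and shares between sections given here and below do not allow for it. Of 15637 genes, 4 differed between jejunum and ileum (0.0256%), all with the lower change in the jejunum. Tmem117 changed by -1.24 in the jejunum and 0.10 in the ileum in that fit, a difference of -1.34 ± 0.26 (edgeR adjusted p = 0.0485). Slc25a15, the mitochondrial ornithine carrier, changed by -0.15 and 0.68 (difference -0.83 ± 0.16, edgeR adjusted p = 0.0411), and Ttll2 by 0.33 and 2.83 (difference -2.50 ± 0.40, edgeR adjusted p = 0.00633). Zbed6 changed by -0.97 and 1.90 (difference -2.87 ± 0.51, edgeR adjusted p = 0.025). No gene passed the test when the left-out samples were kept as labelled, and 53 did under DESeq2.

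No gene differed between the lactation effects of jejunum and duodenum (0% of 15637 by edgeR), with 592 at an unadjusted p under 0.05 and 7 called by DESeq2. Of the 194 jejunal calls, 174 (89.7%) had the same sign of change in the duodenum and 145 (74.7%) in the ileum, against 58.3% and 54.7% of all 14773 genes in both fits. In the fit of female samples 75 genes were called in the duodenum (0.48%) and 79 in the ileum (0.505%). The duodenal calls took in 16 of the 194, which is 8.25% of the jejunal and 21.3% of the duodenal calls, and all 16 had the same sign. They include the rises of Rtn4r (1.43 ± 0.24 in the duodenum), Slc19a3 (1.07 ± 0.25), Slc39a4 (1.28 ± 0.27), Slc30a10 (1.45 ± 0.27), Npl (1.25 ± 0.26) and Mfsd4a (0.79 ± 0.19). The falls among them include Aqp1 (-0.91 ± 0.18), Glud1 (-0.73 ± 0.16), Srd5a2 (-2.59 ± 0.41), Gsdmc2 (-3.95 ± 0.84) and Gsdmc4 (-3.01 ± 0.59). Of the ileal calls, 5 were among the 194, 2.58% of the jejunal and 6.33% of the ileal calls. Slc30a10 (1.38 ± 0.27 in the ileum), Sulf2 (1.04 ± 0.15), Cldn8 and Aldh4a1 had the same sign there, and Zbed6 the opposite. Within the fit of female samples, 10 of 73 jejunal calls were also called in the duodenum and 2 in the ileum.

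**Figure D5:**
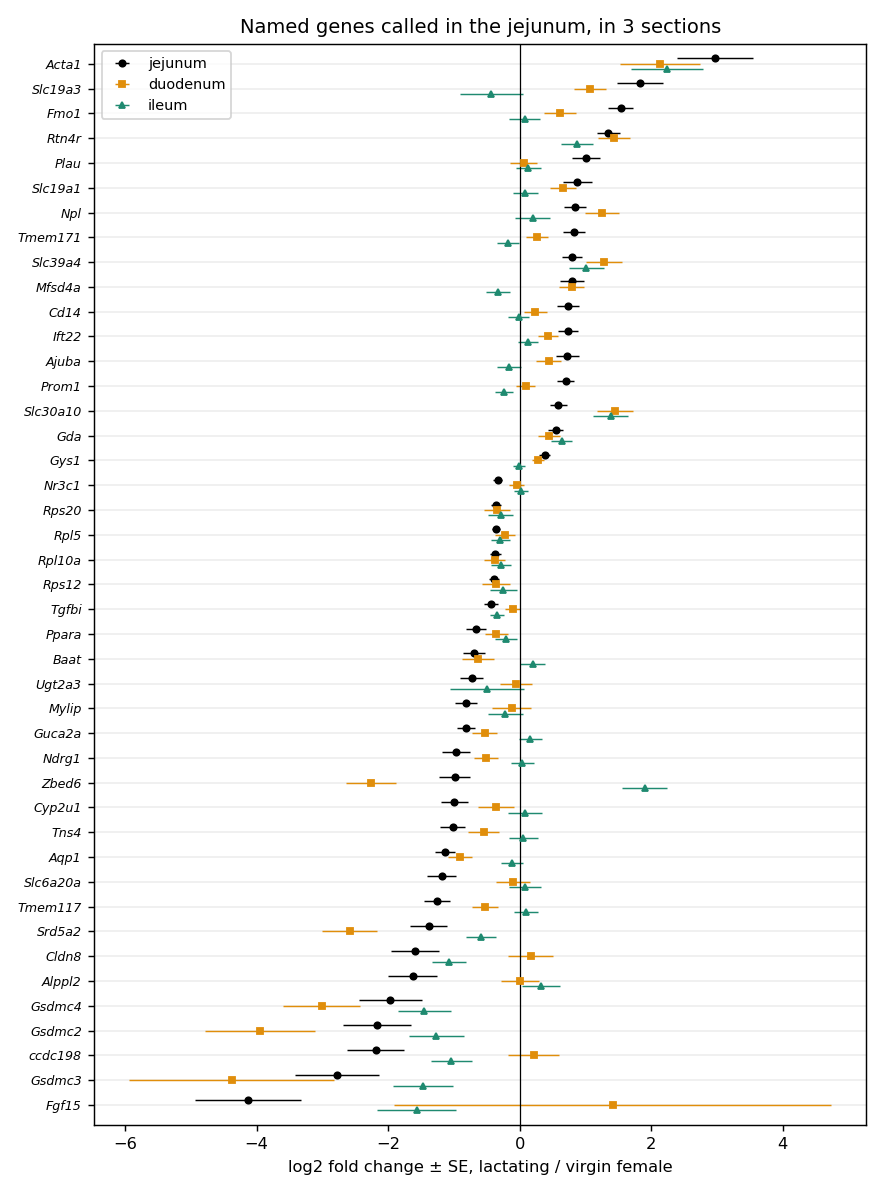
Log2 fold change ± SE, lactating over virgin female, of 43 named genes called in the jejunum, in the jejunum (fit of 17 samples) and in the duodenum and ileum (fit of 34 female samples). Rtn4r, Slc39a4 and Slc30a10 lie above 0 in all 3 sections, while Aqp1 lies below 0 in jejunum and duodenum and near 0 in the ileum.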

How the data were processed

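The authors deposited raw read counts per gene for each sample, in tables of 4 columns that follow STAR's per-gene output. Column 4, the strand of the directional kit, held 98.0% to 98.4% of stranded gene reads in the 11 samples and was used as deposited. STAR 2.7.7a, DESeq2 1.34.0, FastQC 0.11.5 and the build GRCm38 are named in the submitters' processing notes, and the annotation is not given in the sources used here. In this layout reads that fit several places are not counted, so near-identical genes are undercounted. Coordinates are from GENCODE M21 on GRCm38, counted from 1: 24321 of 25229 symbols, and 191 of the 194 called, matched once.

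The test was the quasi-likelihood F test of edgeR 4.0.16 in R 4.3.3, with trimmed mean of M values (TMM) scaling, its expression filter (minimum count 10, minimum total 15) and Benjamini-Hochberg adjustment over all genes tested, called at an adjusted p under 0.05. The jejunum fit held 17 samples (5 lactating, 6 virgin female, 6 virgin male). For differences between sections, interaction contrasts were taken in 1 fit over 34 female samples, without lactating jejunum 3 and lactating duodenum 3. CPM are scaled by TMM, except for markers and sums of lists, which are scaled to library totals, and the sums of the 76 ribosomal protein genes, which are scaled by TMM. No 2 samples were the same library deposited again. The deviations of same-numbered lactating and virgin samples correlated above 0.1 for 2 of 5 numbers, so the numbers were not taken as pairs. Whether sections with the same number came from 1 mouse was not tested, and the fits took all samples as independent. The steps were tested on simulated data.

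The members and the 61 gene lists were chosen with earlier results of these data known. Named genes were 9 fixed genes, the 12 largest rises and 12 largest falls of the called genes whose mean level was 1 or more on the log2 CPM scale, with a plain symbol and no overlap of the groups, up to 4 called members of each list (or the highest member where none was called), and up to 5 genes of each sign for each difference between sections. Alternatives were median-of-ratios scaling, library totals, DESeq2 1.42.0, no count filter, the compared groups only, the left-out samples kept, a replicate block and each sample left out. Smooth muscle level as a covariate and the fit of all female samples were added after seeing the data. The result of 1 called gene is not reported here.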

Additional observations from a re-analysis of the deposited data

Results flagged for a closer look

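In 14 of 180 groups of jejunum samples examined for the named genes, the highest or lowest sample stood far from the rest, where chance gives about 5%. Virgin female sample 5 accounts for 6 of them. It had 145 CPM of Gsdmc2 against 23.4 to 24.9 CPM in the other 5 virgin females, 64.1 CPM of Gsdmc3 against 6.44 to 11.3 CPM, and 174 CPM of Gsdmc4 against 28.3 to 41.9 CPM. The same sample had 709 CPM of Klf4, a transcription factor of the villus (others 439 to 457 CPM), 1132 CPM of the interferon-induced gene Ifi27l2b (624.8 to 807 CPM) and 163 CPM of the clock gene Bhlhe40 (105 to 123 CPM). Lactating sample 1 was highest for Fabp4, a fat cell gene, at 153 CPM (others 14.2 to 46.3 CPM), for Mfsd4a at 66.5 CPM (40.3 to 45.1 CPM), for Nr3c1 at 176 CPM (132 to 144 CPM) and for Bpgm at 111 CPM (81.6 to 89.1 CPM). Lactating sample 4 was highest for the secretory granule gene Chgb at 118 CPM (others at most 66.3 CPM) and for Srd5a2 at 1.68 CPM (0.616 to 0.804 CPM), and lowest for Gys1 at 13.9 CPM (17.8 to 18.3 CPM). Virgin female sample 3 was highest for Srd5a2 at 4.09 CPM (others 1.78 to 2.39 CPM).

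The lactation effect differed between jejunum and ileum for Slc25a15 (difference -0.83 on the log2 scale), Tmem117 (-1.34), Ttll2 (-2.50) and Zbed6 (-2.87), by edgeR's test of the difference. The lactating jejunum sample 3, which entered no comparison above, had 20.3 CPM of Pdx1, where the 11 samples used had at most 0.265 CPM.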

How the results depend on the processing

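The 44 called named genes kept their direction in every setting tried. The count of 194 calls became 546 under DESeq2 (192 of the 194 among them), 71 without a count filter, 18 in the compared groups only, 68 with the left-out samples kept, 73 in the fit of all female samples and 8 to 150 with 1 sample left out. With a block for the replicate number it was 67, of which 60 were among the 194. Same-numbered lactating and virgin samples correlated at -0.32 to 0.47, and 2 of 5 correlated best with their own number, so the numbers are not taken as pairs. The 4 genes that differed from the ileum became 9 under library totals, 53 under DESeq2, 8 in the compared groups only, 0 with the left-out samples kept, 12 with the replicate block and 1 to 9 with 1 sample left out. The 0 for the duodenum became 7 under DESeq2. The cause was not tested.

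Uncalled named genes near 0 changed sign: Cd74 (0.011), Hsp90ab1 (0.010) under library totals, Btnl1 (-0.081), Hsp90ab1 (0.10), Scd1 (-0.085), Trf (-0.10) with the left-out samples kept, and Cd74 (0.080), Clps (-0.022), H2-K1 (0.015), Kit (-0.14), Klf4 (0.015), Ptgs1 (-0.057), Trf (-0.066) with the muscle covariate. With 1 sample left out, uncalled genes that changed sign had ranges of -0.13 to 0.083 for Anpep, -0.20 to 0.045 for Apoa4, -0.0059 to 0.086 for Btnl1, -0.26 to 0.23 for Cd74, -0.063 to 0.018 for Cdkn1a, -0.11 to 0.19 for Clps, -1.08 to 0.064 for Fabp4, -0.11 to 0.026 for H2-K1, -0.050 to 0.026 for Hsp90ab1, -0.19 to 0.0026 for Ifi27l2b, -0.070 to 0.13 for Kit, -0.10 to 0.089 for Klf4, -0.060 to 0.67 for Krt14, -0.023 to 0.20 for Mki67, -0.088 to 0.12 for Ptgs1, -0.96 to 0.62 for Scd1, -0.48 to 0.25 for Trf and -0.045 to 0.32 for Vip. Depth limits the size given for Fgf15, which had 16 reads in the 5 lactating samples.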
